A study of Drosophila melanogaster with 7 samples.

Results

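The glutathione transferase (Gst) and UDP-glycosyltransferase (Ugt) genes of Drosophila melanogaster were followed in larval salivary glands with cleaved or intact cohesin. A gene was taken as a member if its current symbol, or an older synonym, begins with Gst plus a class letter and number or with Ugt plus a number. The gene table listed 70 such genes, 35 Gst and 35 Ugt, all found by their current symbol. Of these, 63 had a probe with a single gene name, 28 Gst and 35 Ugt, out of 11609 named genes in the whole series. The Gst members measured were 11 of 11 in class D, 7 of 14 in E, 3 of 3 in O, 1 of 1 in S, 4 of 4 in T and 2 of 2 in Z. GstE2, GstE3 and GstE5 to GstE9 were not analysed here. The Ugt members fell into 13 families by number, with 8 genes in Ugt37, 6 in Ugt35, 4 each in Ugt36 and Ugt303, 3 each in Ugt49 and Ugt302, and 1 in each of the other 7. GstO2 had 2 probes and every other member 1, and no filter on low values was applied, so all 63 entered the test.

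Glands with cleaved cohesin came from w1118 larvae with hs-TEV/+ and carried Rad21ex15 Rad21(TEV)/Rad21ex3. Their Rad21, the subunit that closes the cohesin ring around DNA, was a myc-tagged form with sites for the TEV protease. Glands with intact cohesin were of 2 kinds, genomic Rad21/Rad21ex3 on 3 arrays (1.1, 1.2 and 1.3) and Rad21ex3 tgRad21/Rad21ex3, a transgenic Rad21, on 4 arrays (2.1 to 2.4). All groups shared the w1118 background, at least 1 copy of Rad21ex3 and the heat-inducible TEV transgene, and all came from crawling third-instar larvae. Every gland was heat-shocked for 45 minutes at 37 °C and kept 10 to 12 hours at room temperature before RNA isolation. Each array carried a pair of a cleaved and an intact sample in opposite dyes, and the pairs were taken as independent in the fit. The cleaved and intact glands came from different stocks, so stock and Rad21 cleavage cannot be told apart. The heat-shock promoter is not specific to a tissue, and the labels do not say how many animals went into a sample.

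Both families take part in the second step of detoxification, after enzymes such as cytochromes P450 have made a compound reactive. Glutathione transferases are mostly soluble and join the tripeptide glutathione to electrophilic compounds, products of lipid peroxidation and insecticides. UDP-glycosyltransferases sit in the membrane of the endoplasmic reticulum and join a sugar, in insects usually glucose from UDP-glucose, to small lipophilic molecules such as plant toxins, pigments, hormones and odorants. In flies both families are known mainly from gut, fat body, Malpighian tubules and antennae, and several members answer to oxidative stress through the transcription factor Cnc, the fly relative of Nrf2. Many members lie side by side in the genome as products of gene duplication.

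The values were the authors' deposited log ratios, 1 per probe and array, read here as log2 ratios, and each gene's value on an array was the mean of its probes. The numerator is not stated. A positive value likely means more transcript in glands with cleaved cohesin, because the ecdysone receptor gene EcR, known from other work to fall when cohesin is lost, lay at −1.77 ± 0.17 (SE) and was negative on 7 of 7 arrays. Signs are given as deposited, and counts and sizes would be the same if the direction were the opposite. Each gene's dye-adjusted mean over the 7 arrays was tested against 0 with limma over 13521 features, and a gene was called at an adjusted p under 0.05 (Benjamini-Hochberg). Over all features 8.12% were called, 3.88% negative and 4.25% positive. The median of all features lay between −0.22 on array 2.1 and 0.25 on array 2.3. A log ratio holds no level, so it does not show which members the gland expresses, and fewer cells of a type and less RNA per cell cannot be told apart.

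Of the 63 members 4 were called, Ugt37C1, Ugt317A1 and GstT4 with positive log2 ratios and GstZ2 with a negative one. That is 6.35% of the members, against the 8.12% of all features. Among the 28 Gst genes 1 was positive, 1 negative and 26 did not pass. Among the 35 Ugt genes 2 were positive, 0 negative and 33 did not pass. At an unadjusted p under 0.05 in limma, 6 Gst genes (4 negative, 2 positive) and 7 Ugt genes (all positive) were counted, where 20.1% of all features reached that level. The median log2 ratio was −0.02 over the Gst genes and 0.17 over the Ugt genes, and it was 0.02 over all features. Of the Ugt genes 25 had a positive and 10 a negative mean, and the most negative Ugt mean was −0.17, for Ugt316A1. Of the Gst genes 13 were positive and 15 negative.

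**Figure D1:**
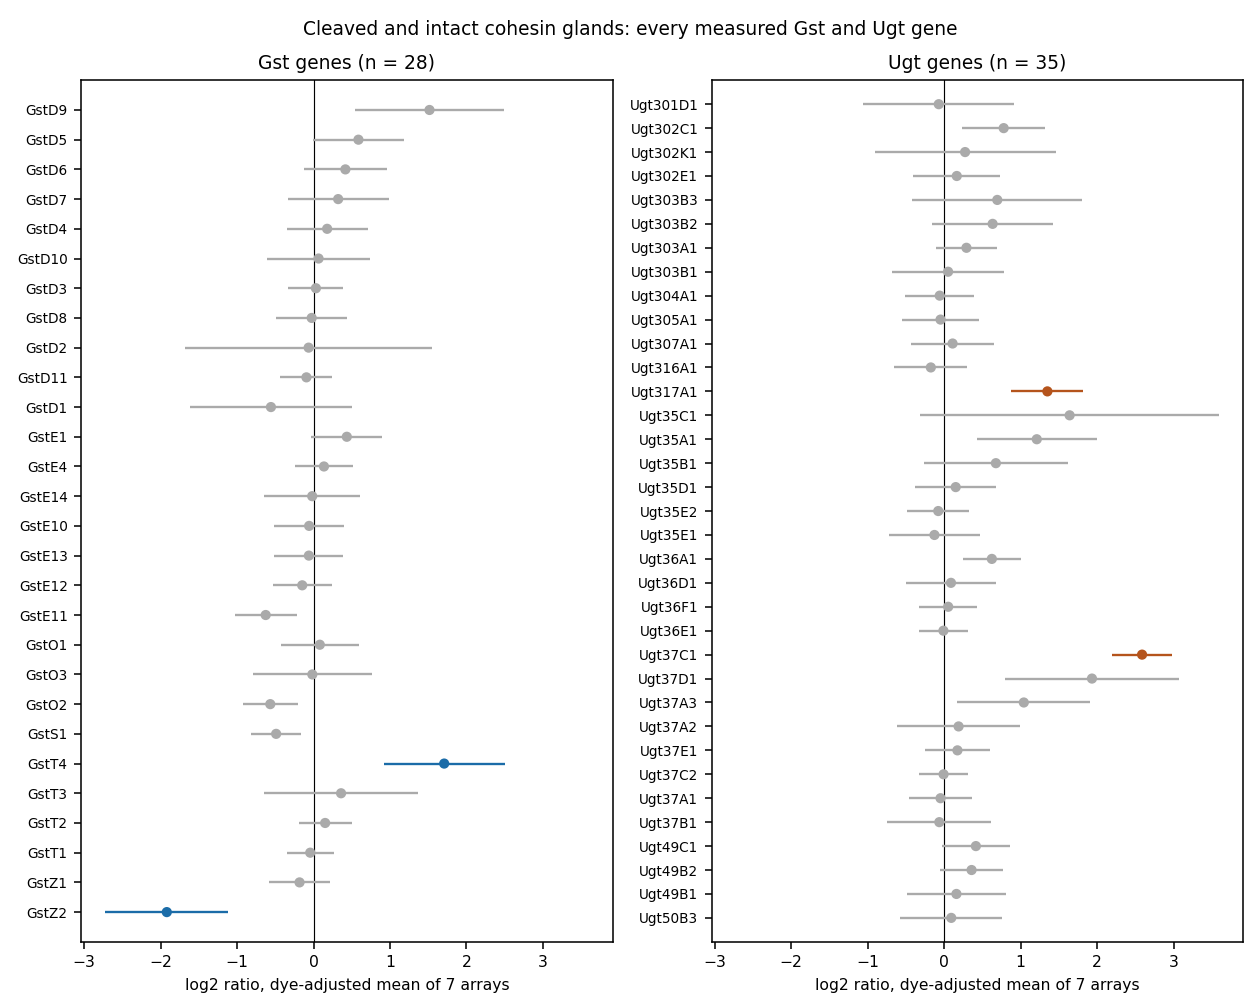
Dye-adjusted mean log2 ratio (horizontal axis) of each of the 28 Gst genes (left panel) and 35 Ugt genes (right panel), with its 95% interval from limma as a bar. Coloured genes passed an adjusted p under 0.05 and grey genes did not, and no Ugt mean lies below −0.17.

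Sizes were uneven within both families. A mean log2 ratio of at least 1 in either direction was found for 9 of 63 members (14.3%), 3 Gst and 6 Ugt, while 5.69% of all features reached that size. Of the 9, 8 were positive and 1 negative, where 3.02% of all features lay at 1 or more and 2.67% at −1 or less. Means between −0.5 and 0.5 were found for 21 Gst and 24 Ugt genes, 71.4% of the members against 80.0% of all features. The 95% interval of the mean lay wholly between −1 and 1 for 20 Gst and 23 Ugt genes, 68.3% of the members against 74.5% of all features. Members varied between arrays with a median SD of 0.70 for Gst and 0.76 for Ugt genes, against 0.57 for all features.

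On single arrays the Ugt median was above the median of all features on each of the 7 arrays. On arrays 1.1, 1.2 and 1.3 it read 0.02, 0.16 and 0.26, against 0.10, −0.06 and 0.12 for the Gst genes. On arrays 2.1 to 2.4 it read 0.32, 0.28, 0.48 and −0.11, against −0.12, −0.25, 0.04 and −0.09 for the Gst genes. The Ugt median was thus above the Gst median on arrays 1.2, 1.3, 2.1, 2.2 and 2.3 and below it on arrays 1.1 and 2.4. The Gst median was below that of all features on arrays 1.2, 2.2 and 2.3. Between 18 and 26 of the 35 Ugt genes and between 11 and 17 of the 28 Gst genes lay above the array's median of all features. The members of a family are not replicates, so the families were not tested against each other.

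**Figure D2:**
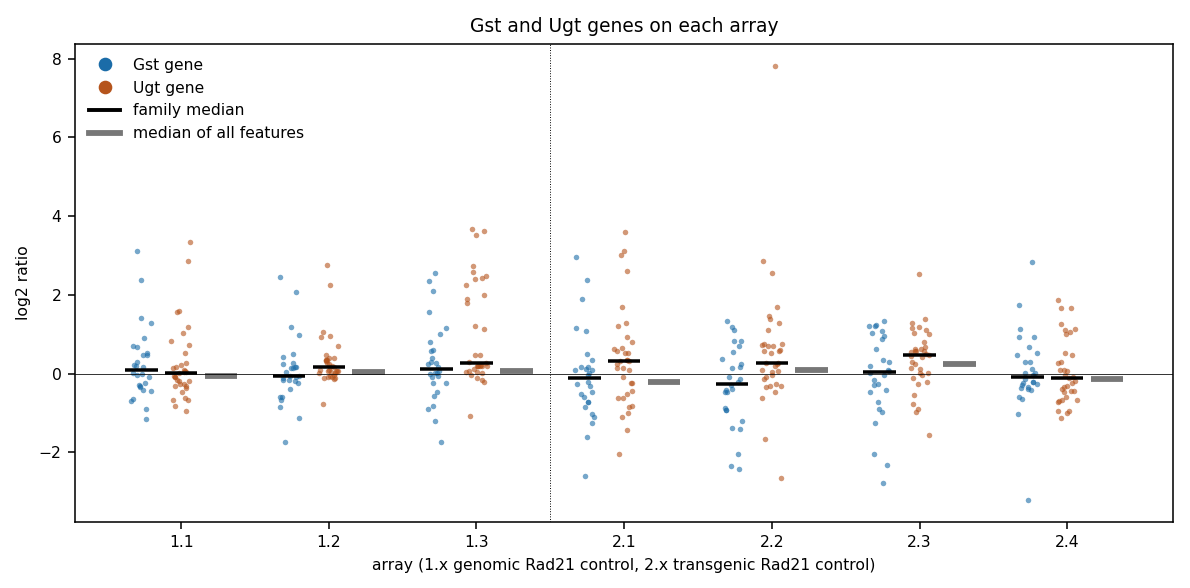
Log2 ratio (vertical axis) of each Gst gene (blue) and Ugt gene (orange) on each of the 7 arrays, with the family median as a black bar and the median of all 13521 features as a grey bar. The Ugt medians run from −0.11 to 0.48 and the Gst medians from −0.25 to 0.12, and both families hold single genes far from their median.

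GstZ2 was the called gene with a negative ratio. It belongs to the zeta class, whose enzymes act as maleylacetoacetate isomerases in the breakdown of tyrosine. Its log2 ratio was −1.16, −0.16 and −1.21 on the genomic Rad21 arrays (1.1 to 1.3) and −2.60, −2.42, −2.33 and −3.21 on the transgenic Rad21 arrays (2.1 to 2.4). All 7 arrays were negative, and each array with the transgenic control lay below each array with the genomic control. The mean was −1.92 ± 0.35 (SE, n = 7, limma adjusted p = 0.015), a 3.78-fold difference. Without array 2.4 it was −1.68 with a limma adjusted p of 0.0636. It was not called on the 3 genomic Rad21 arrays alone (−0.84, limma adjusted p = 0.319) or on the 4 transgenic ones alone (−2.64, 0.0523). The fit on the genomic arrays alone had no dye term, and that on the transgenic arrays alone kept it.

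GstZ1, the neighbour of GstZ2 on arm 3R with no other protein-coding gene between them, did not pass. Its log2 ratio was −0.42, −0.85 and −0.46 on the genomic Rad21 arrays (1.1 to 1.3) and 0.09, −0.38, 0.02 and 0.52 on the transgenic Rad21 arrays (2.1 to 2.4). Here the transgenic Rad21 arrays lay above the genomic ones, the other order than in GstZ2. The mean was −0.18 ± 0.17 (SE). The other genes of tyrosine breakdown that were measured, Tat, Hpd, hgo and Faa, had means between −0.10 and 0.08, and 0 of 4 had a limma p under 0.05, adjusted or unadjusted.

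GstT4, of the theta class and on the X chromosome, was the called Gst gene with a positive ratio. It read 2.38, 2.44 and 2.36 on the genomic Rad21 arrays (1.1 to 1.3), and 2.97, 0.24, 0.94 and 0.93 on the transgenic Rad21 arrays (2.1 to 2.4). The 3 genomic Rad21 arrays lay close together, while the transgenic Rad21 arrays were spread and array 2.2 was near 0. The mean was 1.71 ± 0.34 (SE, n = 7, limma adjusted p = 0.0224), a 3.27-fold difference. The call was lost without array 1.1 (limma adjusted p = 0.0649), 1.2 (0.0700), 1.3 (0.0669), 2.1 (0.0531) or 2.4 (0.0612), with means between 1.47 and 1.83. It was also lost with scaled arrays (1.93, limma adjusted p = 0.0629) and with a replicate block (1.65, 0.0585). GstT4 was called on the genomic Rad21 arrays alone (2.39, limma adjusted p = 0.04985) and not on the transgenic ones alone (1.27, 0.385). Of these fits on one set, only the transgenic one had a dye term. The other 3 theta genes did not pass. GstT1 and GstT2, neighbours on arm 2R, had means of −0.04 and 0.15, with all arrays between −0.29 and 0.48. GstT3 averaged 0.36 ± 0.44 (SE) with −1.40 on array 2.2 as its lowest and 2.56 on array 1.3 as its highest value, and its plain mean was 1.07 over the genomic and −0.29 over the transgenic Rad21 arrays.

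The 11 delta-class genes, the class of the DDT-metabolising enzyme GstD1, form 1 run on arm 3R with 1 other protein-coding gene among them. None was called by limma, and 1 of them, GstD9, had an unadjusted p under 0.05. GstD9 read 3.11, 2.08 and 2.09 on the genomic Rad21 arrays (1.1 to 1.3), and 2.38, −0.14, −0.30 and 1.74 on the transgenic Rad21 arrays (2.1 to 2.4). Arrays 1.1 to 2.1 and 2.4 thus lay at 1.74 or more and arrays 2.2 and 2.3 just below 0, which gave a mean of 1.52 ± 0.42 (SE, n = 7, limma adjusted p = 0.0714). It was called without array 2.2 (mean 1.85, limma adjusted p = 0.0262) or without array 2.3 (1.89, 0.0417).

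GstD1, a widely used reporter of oxidative stress through Cnc, lay at 0.90, −0.67 and 0.80 on the genomic Rad21 arrays (1.1 to 1.3) and at −1.61, −2.33, −2.03 and 0.68 on the transgenic Rad21 arrays (2.1 to 2.4). Its signs were mixed in both sets, and its mean of −0.56 ± 0.46 (SE) did not pass. The plain mean was 0.34 over the genomic and −1.32 over the transgenic Rad21 arrays. GstD2 had the widest spread of the class, between −2.79 on array 2.3 and 2.83 on array 2.4, and a mean of −0.06. GstD5, GstD6 and GstD7, which are neighbours, had means of 0.59, 0.42 and 0.32, and the remaining 5 delta genes lay between −0.09 and 0.18. Neighbours in the run did not share one ratio, since GstD9 stands between GstD10 (0.07) and GstD1. Delta genes are closely related in sequence, and probe sequences were not used here, so how far a probe also reads a neighbour's transcript was not tested.

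**Figure D3:**
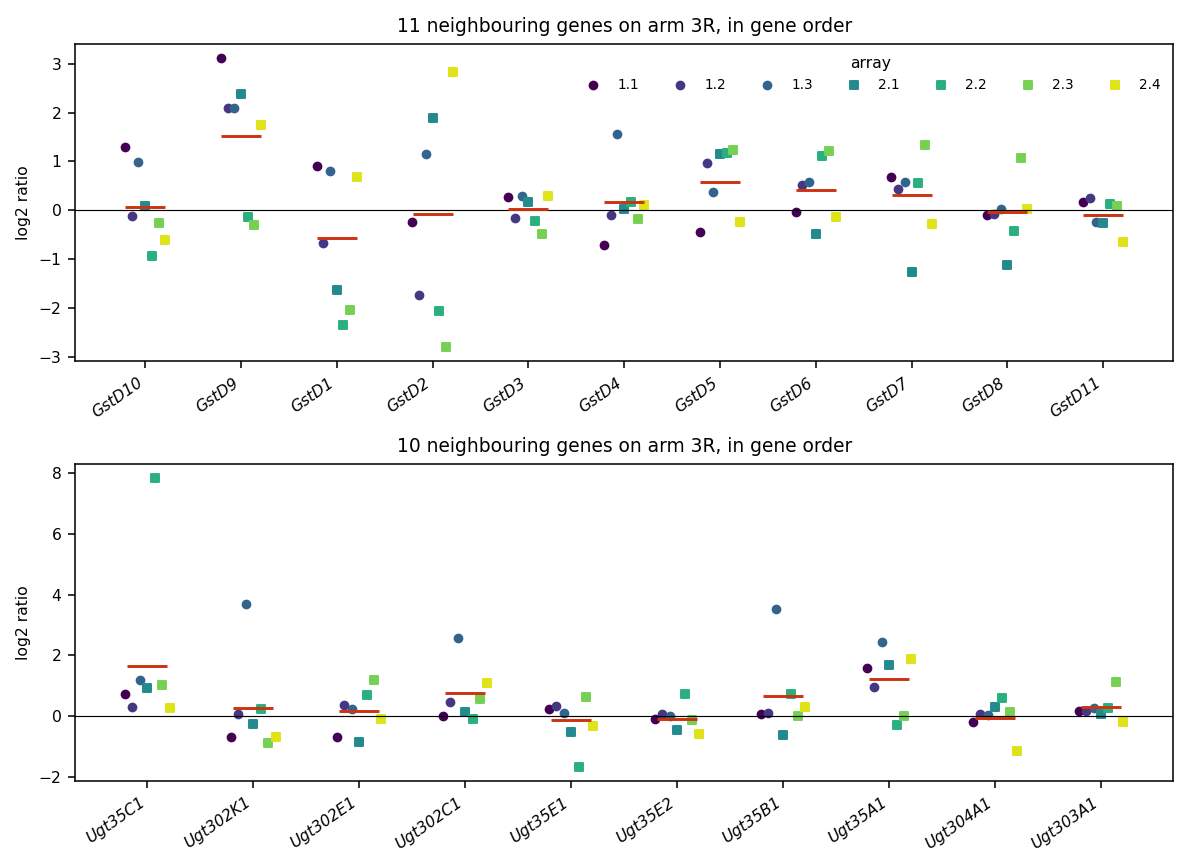
Log2 ratio (vertical axis) of the neighbouring genes on arm 3R in their gene order, the 11 GstD genes in the upper panel and 10 Ugt genes in the lower panel, with 1 point per array (circles genomic, squares transgenic Rad21 control) and the dye-adjusted mean as a red bar. GstD9 at 1.52 stands above its neighbours GstD10 (0.07) and GstD1 (−0.56), and in the lower panel single arrays reach 7.82 for Ugt35C1 and 3.68 for Ugt302K1.

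Among the 7 epsilon-class genes measured none was called by limma, and 1 had an unadjusted p under 0.05. GstE11 was the farthest from 0. It read −0.90, −1.14 and 0.02 on the genomic Rad21 arrays (1.1 to 1.3) and −0.53, −1.20, −0.97 and 0.02 on the transgenic Rad21 arrays (2.1 to 2.4). Arrays 1.3 and 2.4 were near 0 and the others at −0.53 or lower, for a mean of −0.63 ± 0.18 (SE, n = 7, limma adjusted p = 0.0718). GstE1, another gene that answers to Cnc, averaged 0.44 ± 0.20 (SE) and was positive on 6 of 7 arrays. GstE14, also called nobo, which the ring gland needs for ecdysone synthesis, averaged −0.02 with values from −1.03 to 0.82. GstE4, GstE10, GstE12 and GstE13 had means between −0.15 and 0.14.

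GstO2, of the omega class, whose enzymes act more as thiol transferases, had 2 probes that gave −0.56 and −0.57, and its gene value was negative on all 7 arrays, from −0.92 on array 2.2 to −0.003 on array 1.1. The mean of −0.57 ± 0.16 (SE, n = 7) had a limma adjusted p of 0.0699. GstS1, known as an abundant enzyme of flight muscle that acts on lipid peroxidation products, was also negative on all 7 arrays. It read −0.64, −0.59 and −0.82 on the genomic Rad21 arrays (1.1 to 1.3) and −0.71, −0.46, −0.04 and −0.26 on the transgenic Rad21 arrays (2.1 to 2.4), for a mean of −0.49 ± 0.14 (SE, limma adjusted p = 0.0816). The genes on either side of GstO2 in its run on arm 3L, GstO3 and GstO1, averaged −0.02 and 0.08. Of all members 9 kept one sign on 7 arrays, 3 Gst negative, 1 Gst positive and 5 Ugt positive, while 11.9% of all features did so, 6.36% positive and 5.51% negative.

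Ugt37C1, on arm 2R, had the largest mean of the members. Its log2 ratio was 2.87, 2.77 and 2.26 on the genomic Rad21 arrays (1.1 to 1.3) and 3.59, 2.86, 2.53 and 1.66 on the transgenic Rad21 arrays (2.1 to 2.4). All 7 arrays were above 1.6 and the 2 sets overlapped. The mean was 2.59 ± 0.17 (SE, n = 7, limma adjusted p = 0.000234), a 6.01-fold difference. Leaving out single arrays gave means between 2.49 and 2.71, all called. It was called on the genomic Rad21 arrays alone (2.63, limma adjusted p = 0.0498) and not on the transgenic ones alone (2.66, 0.0604). Only the fit on the transgenic arrays alone had a dye term, so these 2 calls are not like for like.

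The other 7 Ugt37 genes did not pass. Ugt37D1, the last of 3 adjacent genes on arm 2L, read 3.35, 2.26 and 3.61 on the genomic Rad21 arrays (1.1 to 1.3), and 3.11, 0.07, 0.25 and 1.14 on the transgenic Rad21 arrays (2.1 to 2.4). It was positive on every array but near 0 on arrays 2.2 and 2.3, for a mean of 1.93 ± 0.49 (SE, n = 7, limma adjusted p = 0.0526). It was called without array 2.2 (mean 2.29, limma adjusted p = 0.0280) or 2.3 (2.29, 0.0464). Its neighbours Ugt37C2 and Ugt37E1 averaged −0.01 and 0.17, with all arrays between −0.67 and 0.75. Ugt37A3 averaged 1.04 ± 0.38 (SE), with 2.62 on array 2.1 and −0.30 and −0.21 on arrays 2.2 and 2.3. Its neighbour Ugt37A2 read 2.41 on array 1.3 and between −0.76 and 0.16 on the other 6. Ugt37A1 and Ugt37B1 averaged −0.05 and −0.06.

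For 10 of the 63 members arrays 2.2 and 2.3 held the 2 lowest of the 7 values, 15.9% of the members against 7.46% of all features. They were GstD1, GstD2, GstD3, GstD9, GstT3, Ugt301D1, Ugt35A1, Ugt37A2, Ugt37A3 and Ugt37D1. This pair of arrays was singled out after the values were seen, so no test was made. The 2 arrays had opposite dye orientation and both had a transgenic Rad21 control. Ugt317A1 was the reverse case among the called genes, with its 2 highest values on these arrays. The median of the 7 salivary gland markers was −1.32 on array 2.2, its lowest, and −0.45 on array 2.3, and it lay between −0.91 and 0.24 on the other arrays. The part of gland state in these values was not tested.

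**Figure D4:**
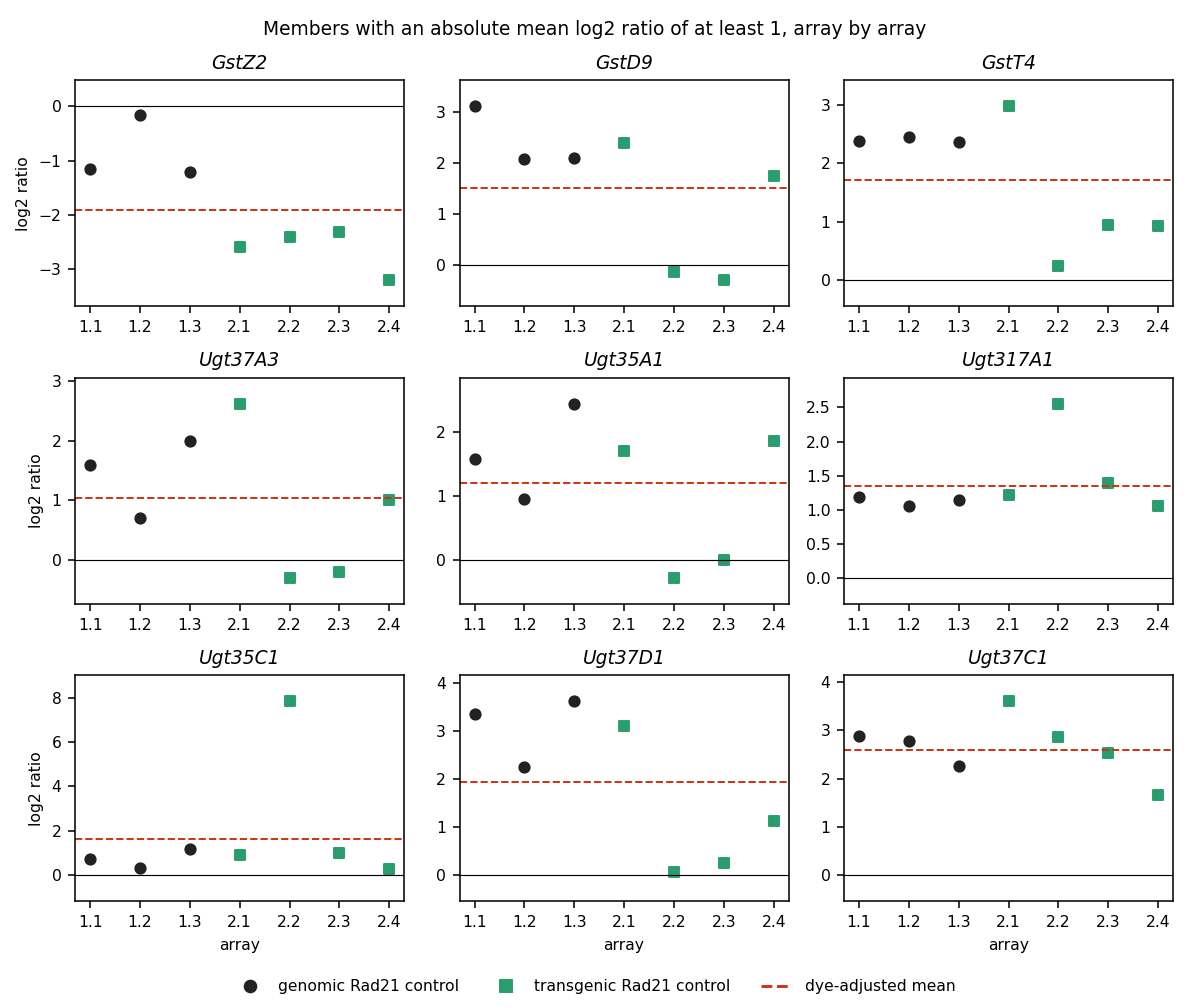
Log2 ratio (vertical axis, scale differs by panel) on each array (horizontal axis) of the 9 members with an absolute mean of at least 1, with genomic Rad21 controls as black circles and transgenic ones as green squares and the dye-adjusted mean as a dashed line. Ugt37C1, GstZ2, GstT4, Ugt317A1, Ugt37D1 and Ugt35C1 keep one sign on all arrays. GstD9, Ugt37D1, Ugt35A1 and Ugt37A3 are lowest on arrays 2.2 and 2.3, and the mean of Ugt35C1 rests on 7.82 on array 2.2.

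Ugt317A1, formerly Ugt58Fa, the only gene of its family and also on arm 2R, was the other called Ugt gene. It read 1.18, 1.06 and 1.14 on the genomic Rad21 arrays (1.1 to 1.3) and 1.22, 2.55, 1.39 and 1.06 on the transgenic Rad21 arrays (2.1 to 2.4). Array 2.2 stood above the others, which lay between 1.06 and 1.39. The mean was 1.35 ± 0.20 (SE, n = 7, limma adjusted p = 0.00742), a 2.55-fold difference, and it was called without each single array in turn. It was called on neither control set alone.

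The run of 10 Ugt genes on arm 3R holds 5 Ugt35, 3 Ugt302, 1 Ugt303 and 1 Ugt304 gene with 3 other protein-coding genes among them. No gene of the run was called by limma, and 2 had an unadjusted p under 0.05. The median over the run was 0.28, with 7 positive and 3 negative means. Ugt35A1 read 1.57, 0.95 and 2.44 on the genomic Rad21 arrays (1.1 to 1.3) and 1.70, −0.27, 0.01 and 1.87 on the transgenic Rad21 arrays (2.1 to 2.4), for a mean of 1.21 ± 0.34 (SE, limma adjusted p = 0.0725). Without array 2.3 it was called (1.57, limma adjusted p = 0.0252), as it was with array weights (1.37, 0.0113). Ugt302C1 was positive on 6 of 7 arrays, from −0.08 on array 2.2 to 2.58 on array 1.3, with a mean of 0.78 ± 0.24 (SE, limma adjusted p = 0.0931). It was called without array 2.3 (0.99, limma adjusted p = 0.0434) or with array weights (0.89, 0.0225). Ugt302C1 averaged 0.49 without array 1.3 (limma adjusted p = 0.155), and was not called without any other single array (0.153 to 0.228).

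Ugt35C1, formerly Ugt86Dd and known for its part in nicotine resistance, had the largest mean of the run, 1.64 ± 0.85 (SE), which did not pass. It was positive on all 7 arrays, but array 2.2 read 7.82 and the other 6 lay between 0.27 and 1.21. Without array 2.2 its mean was 0.75. Array 1.3 stood above the others in 2 further genes of the run, at 3.68 for Ugt302K1 and 3.52 for Ugt35B1, a gene known for its expression in the antenna. On the other 6 arrays these genes lay between −0.89 and 0.73, and their means were 0.27 ± 0.51 and 0.68 ± 0.41 (SE). Ugt302E1, Ugt35E1, Ugt35E2, Ugt304A1 and Ugt303A1 averaged between −0.13 and 0.29. Ugt35D1, which lies elsewhere on arm 3R, averaged 0.15.

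In the Ugt36 family, Ugt36A1, the gene first called Dorothy and used as a marker of blood-forming and pericardial cells, was positive on all 7 arrays. It read 0.82, 0.34 and 0.48 on the genomic Rad21 arrays (1.1 to 1.3) and 0.66, 0.08, 0.56 and 1.27 on the transgenic Rad21 arrays (2.1 to 2.4). The mean of 0.62 ± 0.16 (SE, n = 7) had a limma adjusted p of 0.0569. The 3 adjacent genes Ugt36F1, Ugt36D1 and Ugt36E1 averaged 0.05, 0.09 and −0.01. Of the 7 measured hemocyte markers 0 were called by limma, and their median was 0.0005.

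The Ugt303B genes are 3 neighbours on arm 3R. Ugt303B3 and Ugt303B2 averaged 0.69 ± 0.48 and 0.63 ± 0.34 (SE) with arrays from −0.94 to 3.01, and Ugt303B1 averaged 0.05. Ugt303B3 averaged 0.22 without array 1.3 and 0.33 without array 2.1. In the Ugt49 family Ugt49C1, Ugt49B2 and Ugt49B1 averaged 0.42, 0.36 and 0.16, and none passed. Ugt49C1, the farthest from 0 of these, was positive on 6 of 7 arrays and −0.67 on array 2.4. Among the families with 1 member, Ugt307A1 and Ugt50B3 averaged 0.11 and 0.09, and Ugt316A1, Ugt301D1, Ugt304A1 and Ugt305A1 averaged −0.17, −0.07, −0.06 and −0.05. Ugt301D1 was the most variable of these, between −2.65 on array 2.2 and 1.805 on array 1.3.

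The labels also allow a comparison of the 2 kinds of intact control, as the difference between the genomic and the transgenic Rad21 arrays. No member passed (0 of 63 by limma at an adjusted p under 0.05, as for 0 of 13521 features), and 4 Gst genes and 1 Ugt gene had an unadjusted p under 0.05, where 4.34% of all features did. The dye-adjusted difference was 1.73 for GstZ2 (95% interval 0.83 to 2.64, limma adjusted p = 0.9997). Its means were −0.84 ± 0.59 on the genomic and −2.64 ± 0.40 on the transgenic Rad21 arrays (SD, n = 3 and 4). The other 4 were GstD1 (1.84), Ugt37D1 (1.90) and GstD10 (1.17), higher on the genomic Rad21 arrays, and GstO3 (−1.51), lower on them. The sets did not overlap for GstZ1 and GstZ2 among the 28 Gst genes and for 0 of 35 Ugt genes, against 4.02% of all features. The interval of Ugt37C1's difference ran from −1.04 to 0.68.

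Genes around the 2 families were read from lists of regulators, glutathione genes, sugar donors, sulfotransferases, tyrosine breakdown and antioxidant enzymes. The glutathione lists also held Gs1, isoQC and eEF1gamma, with means of 0.44, −0.44 and −0.27, and these enter the count and median that follow. Of 32 such genes measured, 1 was positive and 1 negative past the test, 6.25% against 8.12% of all features, and their median log2 ratio was 0.0045. Gclc, the catalytic subunit of glutamate-cysteine ligase, which limits the rate of glutathione synthesis, was the positive one. It read 1.18, 1.98 and 0.57 on the genomic Rad21 arrays (1.1 to 1.3) and 1.37, 1.93, 2.52 and 0.51 on the transgenic Rad21 arrays (2.1 to 2.4), for a mean of 1.41 ± 0.26 (SE, n = 7, limma adjusted p = 0.0171). Its call was lost without array 1.2 (mean 1.35, limma adjusted p = 0.0594) and with a replicate block (1.32, limma adjusted p = 0.0564). Gclc was also not called on the genomic Rad21 arrays alone (1.24, limma adjusted p = 0.233) or on the transgenic ones alone (1.58, 0.220). Gclm, the regulatory subunit, averaged 0.34 ± 0.14 (SE), and Gss1 and Gss2, for the next step, −0.18 and −0.21, none of them past the test.

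UGP, which makes the sugar donor UDP-glucose, was the negative one. It read 0.00, −1.24 and −1.35 on the genomic Rad21 arrays (1.1 to 1.3) and −0.52, −1.40, −1.53 and −1.26 on the transgenic Rad21 arrays (2.1 to 2.4), for a mean of −1.08 ± 0.19 (SE, n = 7, limma adjusted p = 0.0142). It was lost without array 1.2 (−1.01, limma adjusted p = 0.0512) or 2.4 (−1.11, 0.0524) and with scaled arrays (−1.15, 0.0609). UGP was also not called on the genomic Rad21 arrays alone (−0.86, limma adjusted p = 0.398) or on the transgenic ones alone (−1.18, 0.192). The UDP-glucose dehydrogenase gene sgl and Pgm1, which makes the precursor of UDP-glucose, averaged −0.05 and 0.06. The Cnc pathway did not pass, with cnc at 0.12, maf-S at 0.07 and Keap1, the repressor of Cnc, at 0.88 ± 0.24 (SE, limma adjusted p = 0.0686). Keap1 was positive on all 7 arrays, with values between 0.23 and 2.04. The xenobiotic receptor gene Hr96 averaged 0.05, the microsomal transferase gene Mgstl 0.45, and 0 of 4 sulfotransferase genes were called by limma, 1 of them at an unadjusted p under 0.05.

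Markers of the salivary gland and of tissues that may be dissected with it were read beside these values. Of the 9 gut, 7 Malpighian tubule and 7 hemocyte markers measured, 0 were called by limma, 1 of them at an unadjusted p under 0.05. Of 5 fat body markers Apoltp was called at 0.91, and Fbp1 lay at −1.10 ± 0.33 (SE, limma adjusted p = 0.0851), negative on 6 of 7 arrays. The median log2 ratio was −0.25 over the gut, 0.15 over the Malpighian tubule, 0.0005 over the hemocyte and −0.16 over the fat body markers. By array, the gut median was lowest on array 2.1 (−2.15) and highest on array 2.3 (0.70), and the fat body median was lowest on array 1.3 (−1.02) and highest on array 2.1 (0.78). Of 7 salivary gland markers 2 were called, both negative, the glue gene Sgs1 at −6.21 and the transcription factor gene sage at −1.13. Over the 35 markers of all 5 tissues 3 were called, 8.57% against 8.12% of all features. Of the 7 gland markers 5 had a negative and 2 a positive mean, and their median was −0.48. The positive ones were PH4alphaSG1 at 1.25 ± 0.36 (SE, limma adjusted p = 0.0765) and PH4alphaSG2 at 0.75 ± 0.50 (SE). Sgs5 lay at −1.06 ± 0.29 (SE, limma adjusted p = 0.0668) and was positive on 0 of 7 arrays. Sgs4 averaged −0.48 and fkh −0.01. The part of other tissues in the members' values was not tested.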

How the data were processed

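Per the labels, total RNA of 7 pairs of salivary gland samples was hybridised to two-colour INDAC FL003 arrays. The deposited values are log ratios, 1 per probe and array, read here as log2. The log base, numerator, background correction, normalization and genome build are not stated in the sources used here. Signal over background is unknown, so dim probes could not be filtered, and the number of arrays limits the precision. Arrays of opposite dye orientation correlated between 0.023 and 0.488 (12 pairs), and those of the same orientation between −0.036 and 0.588 (9 pairs), so the ratios were taken as already turned one way.

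Probes were named through the platform annotation, updated through RefSeq's gene table for Release 6 (12011 by gene number, 107 by accession, 20 by symbol, 481 by synonym, and 38 with the symbol kept as given). Of 14569 probes 12657 had 1 symbol, 96 several and 1816 none. Probes of a gene were averaged, and the others were kept as single features, which gave 13521 features. These were fitted with limma 3.58.1 in R 4.3.3 (lmFit, eBayes), with the effect and a dye term, 5 residual degrees of freedom and 3.08 prior ones. Of the dye terms 0 passed at an adjusted p under 0.05. By the channel labels Cy5 marked the cleaved sample on 4 arrays and Cy3 did on 3, whereas the design text gives the counts the other way round. Control sets were compared with the same terms plus a set term. The fit was also run on simulated data with independent normal errors, no dye effect and no outlying arrays. The outcome of that run is not given here, and it cannot speak for arrays that stand apart.

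Members and lists were chosen with earlier results of these data known. Named genes were the called members, those with one sign on 7 arrays and an absolute mean of at least 1, the farthest from 0 in each class or family, single members of a family, and called genes of the lists. Other members named in the text were added to account for all of them. Alternatives changed the centring, scaling, dye term, set term, block, averaging, array weights, arrays used and threshold. Sequences are not shown.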

Additional observations from a re-analysis of the deposited data

Results flagged for a closer look

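The 63 members and the family medians were each taken over the 7 arrays and over the 4 transgenic Rad21 arrays. In 11 of 130 such groups 1 array lay far from its nearest neighbour by Dixon's criterion. Chance alone meets this in about 1 group in 20 if values are normal. The groups overlap, since the 4 arrays are among the 7. The share over all features was not computed, so no excess is read from the count. Array 1.3 stood high in Ugt302K1 (3.68, the others −0.89 to 0.24), Ugt35B1 (3.52, others −0.62 to 0.73), Ugt37A2 (2.41, others −0.76 to 0.16), Ugt49B1 (1.89, others −0.44 to 0.32) and GstD4 (1.56, others −0.70 to 0.18). Array 2.2 stood high in Ugt35C1 (7.82, others 0.27 to 1.21, and likewise among the 4 transgenic Rad21 arrays) and in Ugt317A1 (2.55, others 1.06 to 1.39). Ugt303A1 read 1.11 on array 2.3 (others −0.18 to 0.28) and Ugt36F1 −0.85 on array 2.1 (others 0.05 to 0.51). Among the transgenic Rad21 arrays GstD5 read −0.23 on array 2.4 (others 1.15 to 1.23). Array 1.3 held the highest value of 17.5% of the members and of 18.1% of all features, and array 2.2 of 22.2% and 19.4%. The cause of these values was not tested.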

How the results depend on the processing

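The count of called Gst genes was 2, and it was 1 with scaled arrays, a replicate block or the genomic Rad21 arrays alone. It was 0 on the transgenic Rad21 arrays alone or at an adjusted p under 0.01. With no dye term or with a set term it was 3, and with array weights 6 (3 negative, 3 positive). Leaving out single arrays gave 0 (without array 2.4) to 3, and 1 without 1.1, 1.2, 1.3 or 2.1. The count of called Ugt genes was 2, and it was 3 with no dye term or with a set term and 6 with array weights. It was 1 on the genomic and 0 on the transgenic Rad21 arrays alone, and 2 to 5 without single arrays (5 without array 2.3). Over all features 1098 were called, against 506 with the replicate block, 32 and 41 on the genomic and transgenic Rad21 arrays alone, 371 at an adjusted p under 0.01 and 496 to 1084 without single arrays (696, 542, 618 and 496 without 1.1, 1.2, 2.1 and 2.4). The Gst median was 0.12 on the genomic Rad21 arrays alone, and the other alternatives moved either family median by less than 1 SD between arrays. The replicate block, which takes the place of the dye term, ended the calls of GstT4 and Gclc and kept those of GstZ2, Ugt37C1, Ugt317A1 and UGP. For array numbers 1 to 3, same-numbered arrays of the control sets correlated at 0.03, 0.325 and −0.224 in their deviations from the set means. With so few arrays this cannot decide whether shared numbers pair the sets. By limma at an adjusted p under 0.05 the control sets differed for 0 members under each alternative run. Every member was found by its current symbol, so counting older synonyms could not change the results. The alternatives were run gene by gene for the 20 members chosen by the naming rule, and among these the signs that turned belonged to means between −0.17 and 0.11. On the genomic Rad21 arrays alone they were Ugt307A1 (−0.0259), Ugt301D1 (0.0685), Ugt50B3 (−0.16), Ugt305A1 (0.0329) and Ugt316A1 (0.24). With the replicate block they were Ugt301D1 (0.034) and Ugt50B3 (−0.0086), and with array weights the same genes (0.22 and −0.20). Without single arrays Ugt307A1 ranged from −0.0472 to 0.27, Ugt301D1 from −0.31 to 0.38, Ugt50B3 from −0.14 to 0.30, Ugt305A1 from −0.22 to 0.15, Ugt316A1 from −0.39 to 0.0415 and Ugt304A1 from −0.17 to 0.15. The causes were not tested, except that fits on one set alone use fewer arrays. The fit on the genomic Rad21 arrays alone also had no dye term, while that on the transgenic ones kept it.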
